A study of Homo sapiens with 3 samples.

Results

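The genes described here are the named antisense RNA genes, that is, every gene in the deposited lists whose name ends in -AS and a digit. They were taken by name and not by their values, though this rule was set with earlier results of these data known. There were 149 such genes among the 23284 genes listed. Each was set beside the sense gene whose name stands before the hyphen, which was listed for 141 of them (137 different sense genes). RNA-seq had been carried out on 293T cells, an established human embryonic kidney cell line, that transiently expressed dCas9-VP64, in which a Cas9 that can no longer cut its DNA target is joined to a transcriptional activator. All 3 groups carried dCas9-VP64. They differed in the guide: mock received the parental guide vector, and the others received sgL1ASP #1 or sgL1ASP #3, which target the antisense promoter of the retrotransposon LINE-1 (L1). This promoter can drive RNA outward from an L1 copy against the strand of the element. Such an RNA need not run against an annotated gene, and L1 copies near the antisense RNA genes were not mapped here. The libraries were strand-specific.

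Antisense RNAs are transcribed from the DNA strand opposite to another gene. Some start beside the promoter of their sense gene and run away from it, some run into its far end, and some lie within its introns. A few are known to act on their sense gene, several act elsewhere as noncoding RNAs, and others serve mainly as hosts from whose introns small nucleolar RNAs (snoRNAs) are cut.

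There was 1 library for each group, so no difference between the groups has a replicate check, and no test between them is given. The values are FPKM, read fragments divided by the exon length and the size of the library, which are per length and can be set side by side between genes. The mock library had 16640 genes above 0 FPKM, that of sgL1ASP #1 had 16693 and that of sgL1ASP #3 had 16440. Depth was estimated at about 10400000, 10300000 and 8680000 reads in the same order. The 293T label was checked against markers: VIM was between 807 and 904 FPKM in the 3 libraries, KRT8 between 66.9 and 73.2, and NEFL between 9.08 and 9.61, while PAX2 was low (0.522 to 0.658). Of the genes chosen as absent from the line, PTPRC and HBB were listed at 0 in all 3 libraries, ALB was between 0.284 and 0.467, and COL1A1 was between 1.99 and 2.55.

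Of the 149 antisense RNA genes, 33 (22.1%) were listed at 0 in every library, and 24.2% of all genes were. Another 50 were above 0 with a mean under 1 FPKM. The remaining 66 (44.3%) had a mean of at least 1 FPKM over the 3 libraries, beside 55.1% of all genes. Their upper range was thinner: 24 (16.1%) had a mean of at least 10 FPKM, beside 31.1% of all genes. The median antisense RNA gene had 0.662 FPKM with mock, 0.526 with sgL1ASP #1 and 0.669 with sgL1ASP #3, while the median of all genes was 1.96, 1.97 and 1.94. Another class of noncoding RNA genes chosen by name was lower still. Of 142 genes with names starting LINC and digits, 76 (53.5%) were at 0 in every library and 24 (16.9%) had a mean of at least 1 FPKM. Of 12 genes named as intronic transcripts (-IT and a digit), 4 were at 0 throughout and 3 reached a mean of 1 FPKM. Of the 140 antisense RNA genes that could be placed on the genome annotation, 131 carry the lncRNA type and 4 are now listed as protein coding.

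**Figure D1:**
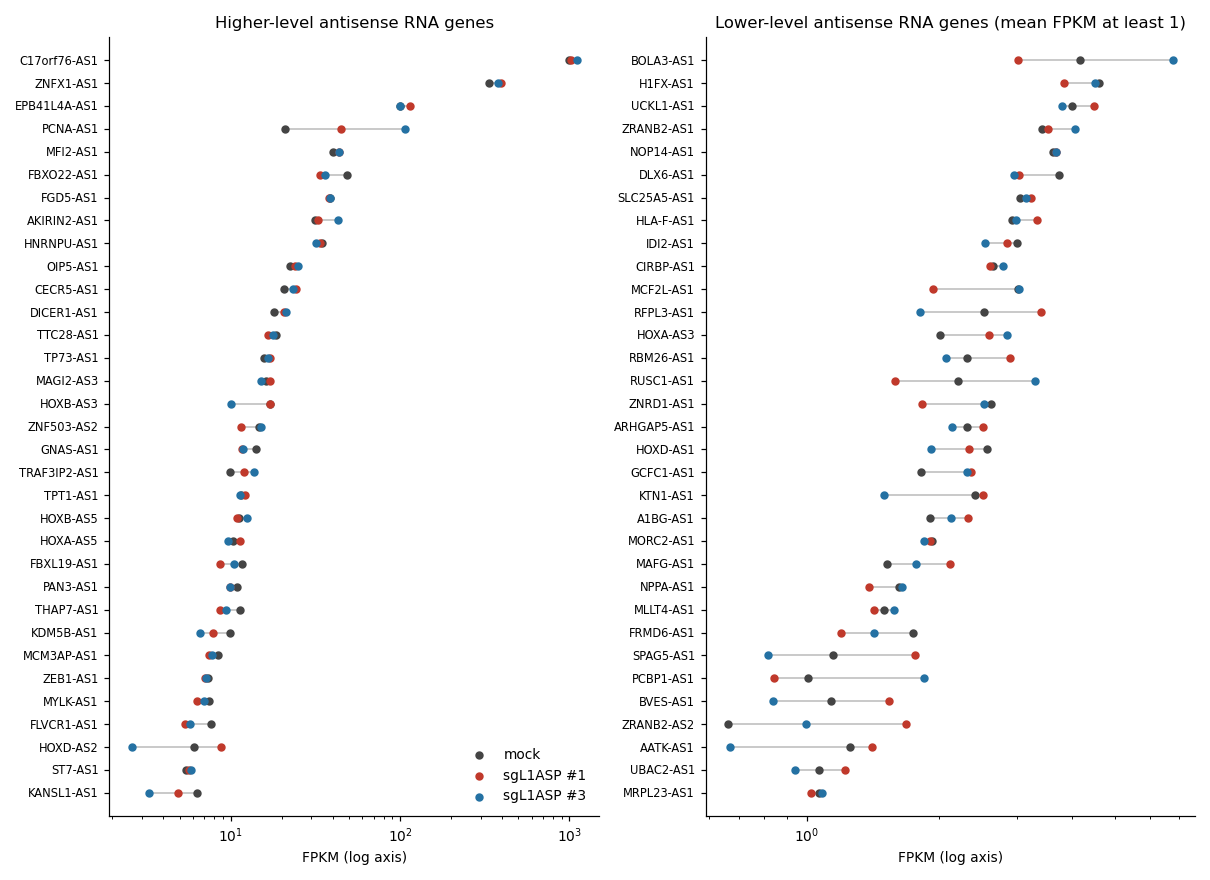
FPKM in mock, sgL1ASP #1 and sgL1ASP #3 of the 66 antisense RNA genes with a mean of at least 1 FPKM, in order of their mean from top left to bottom right, each point being 1 library and each grey line the span of the 3 (log axes that differ between the panels). The highest value was 1105 FPKM, and in 35 of the 66 genes the highest library was under 1.25 times the lowest.

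The 3 highest antisense RNA genes are known hosts of snoRNAs. C17orf76-AS1, now named SNHG29, had 1002 FPKM with mock, 1031 with sgL1ASP #1 and 1105 with sgL1ASP #3. ZNFX1-AS1, now named ZFAS1, had 335, 397 and 381 FPKM. EPB41L4A-AS1 had 99.5, 114 and 101 FPKM. The 3 libraries were therefore close together in each of these genes, at most 1.19-fold from mock. The snoRNAs that lie within these genes were mostly unseen in the poly(A)-selected libraries: SNORD49A, SNORD49B, SNORD65, SNORD12, SNORD12B and SNORD12C were listed at 0 in all 3, and SNORA13 had 46.0 FPKM with mock, 46.6 with sgL1ASP #1 and 0 with sgL1ASP #3. SNORA13 was thus at 0 in a library where its host was at 101 FPKM. Its values with mock and sgL1ASP #1 stand at the ratio that equal read numbers would give (1.013). The reads behind them were not estimated and may be few, so the 0 is not read as a loss.

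The next genes in order of mean level were PCNA-AS1, which is described with the changes, and a group between 15 and 49 FPKM. FGD5-AS1, a noncoding RNA studied for its binding of microRNAs, was the steadiest of them, with 38.5 FPKM with mock, 38.3 with sgL1ASP #1 and 38.9 with sgL1ASP #3. OIP5-AS1, the conserved RNA also called cyrano, which carries a long site for miR-7, had 22.4, 24.0 and 25.1 FPKM. TP73-AS1, beside the gene of the p53 relative p73, had 15.7, 17.0 and 16.7 FPKM. These 3 stayed within 1.12-fold of mock in both comparisons. MFI2-AS1 (40.2, 44.0 and 43.6 FPKM), HNRNPU-AS1 (34.9, 33.8 and 31.9), CECR5-AS1 (20.7, 24.5 and 23.4), DICER1-AS1 (17.9, 20.6 and 21.4), TTC28-AS1 (18.5, 16.7 and 17.8) and MAGI2-AS3 (16.2, 17.1 and 15.1) likewise stayed within 1.2-fold of mock. Wider spans were seen in FBXO22-AS1, which had 48.7 FPKM with mock, 33.6 with sgL1ASP #1 and 35.9 with sgL1ASP #3, and in AKIRIN2-AS1, which had 31.5, 32.7 and 43.3 FPKM. Neither passed 1.5-fold.

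Other antisense RNA genes with a literature of their own were at low or middle levels. MCM3AP-AS1 had 8.41 FPKM with mock, 7.42 with sgL1ASP #1 and 7.76 with sgL1ASP #3, and ZEB1-AS1, which starts beside the gene of the epithelial-mesenchymal transition factor ZEB1, had 7.31, 7.02 and 7.20 FPKM. CDKN2B-AS1, also called ANRIL, spans the locus of the cell cycle inhibitor p15 and had 0.945, 1.04 and 0.789 FPKM, while CDKN2B itself had 3.96, 4.12 and 3.42 FPKM. WDFY3-AS2 had 1.19, 0.779 and 0.925 FPKM. WDFY3-AS2 was the most spread of these 4, 1.53-fold under mock with sgL1ASP #1, but its mean was under the 1 FPKM set as the limit for a comparison. HIF1A-AS2 had 0.0827 FPKM with mock, 0.404 with sgL1ASP #1 and 0.508 with sgL1ASP #3, values under the same limit, while HIF1A, the oxygen-sensing transcription factor gene, had 23.4, 21.5 and 23.3 FPKM. AFAP1-AS1 was listed at 0, 0.0151 and 0.0364 FPKM, and ZEB2-AS1 at 0 in all 3 libraries.

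The question the libraries were made for is what changes when the L1 antisense promoter is activated, and the antisense RNA genes were followed through each comparison. A gene was counted when its FPKM was past 1.5-fold of the other library, with a mean of at least 1 FPKM over the 3 libraries and both values above 0. The 66 antisense RNA genes gave 3 genes above mock and 1 below it with sgL1ASP #1, and 4 genes above and 5 below it with sgL1ASP #3. Counted in the same way, 1.56% of all genes lay higher than mock and 1.67% lower when the guide was sgL1ASP #1, while 1.64% lay higher and 1.84% lower for sgL1ASP #3. The mean includes the libraries compared. Of the antisense RNA genes counted, SPAG5-AS1, ZRANB2-AS2, PCBP1-AS1 and AATK-AS1 would not reach the limit without their highest library. When every library was scaled to 1 common sum, which shifts the median of all genes by -0.09 on the log2 scale for sgL1ASP #1 and -0.12 for sgL1ASP #3, 74 antisense RNA genes reached a mean of 1 FPKM, and they split into 2 higher and 8 lower for sgL1ASP #1, and 4 higher and 8 lower for sgL1ASP #3. Of all genes, 4.75% and 5.43% were then past 1.5-fold either way. Low-level genes were more often past 1.5-fold in general, so the counts were also taken by level. Between 1 and 5 FPKM, 3 of 34 antisense RNA genes were past 1.5-fold either way with sgL1ASP #1, where the share of all genes was 9.99%, and 6 of 34 with sgL1ASP #3, where it was 10.8%. At 5 FPKM or more, 1 of 32 was past it with sgL1ASP #1, where the share of all genes was 0.83%, and 3 of 32 with sgL1ASP #3, where it was 0.874%. The counts are small, and no test was made of whether they exceed the shares of all genes.

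The genes did not move to one side as a group. On the log2(FPKM + 0.1) scale the median change of the 66 genes was 0.03 with sgL1ASP #1 and -0.02 with sgL1ASP #3, beside 0.00085 and 0.0015 for all genes. With sgL1ASP #1, 35 of the 66 (53.0%) were above mock, and with sgL1ASP #3, 32 (48.5%), where 50.3% and 50.4% of all genes were. The size of the changes was larger than over all genes. The median change regardless of sign was 0.20 and 0.16 for the antisense RNA genes, and 0.09 in both comparisons for all genes. Since low values scatter more, the same was taken at a mean of at least 10 FPKM, where it was 0.14 and 0.15 for 24 antisense RNA genes and 0.07 in both comparisons for 7231 genes. A limit on FPKM does not equalise read numbers, because some of these RNAs are short. CECR5-AS1 (303 bases) rests on about 22 reads with mock, and HOXB-AS3 (434 bases) on about 42. The part of length and read number in the larger changes was not tested.

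**Figure D2:**
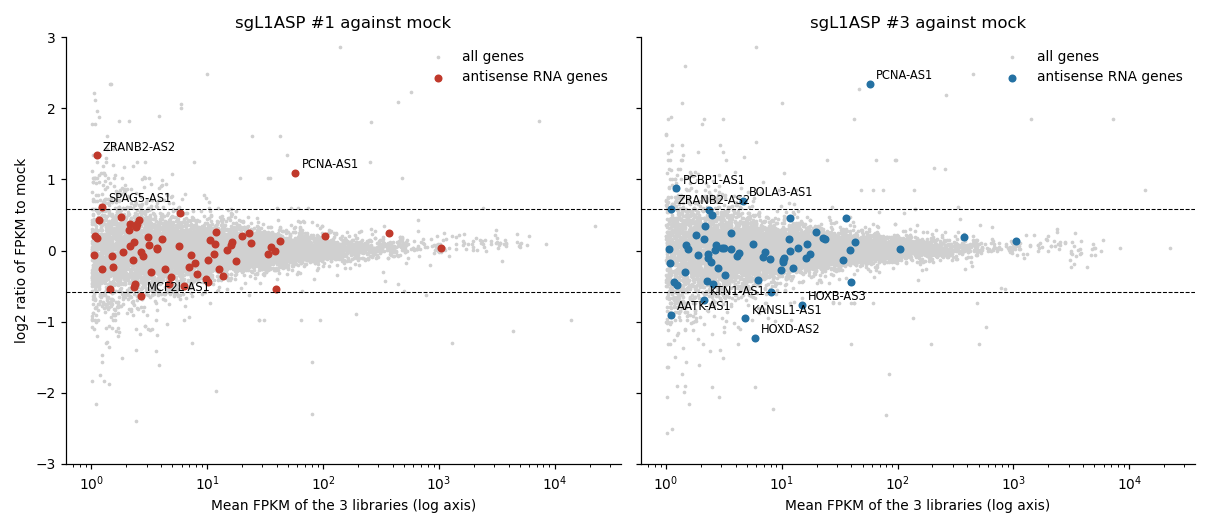
log2 ratio of FPKM to mock against the mean FPKM of the 3 libraries (log axis) for sgL1ASP #1 (left) and sgL1ASP #3 (right), with all genes in grey, the 66 antisense RNA genes in colour and dashed lines at 1.5-fold. PCNA-AS1, at 2.13-fold and 5.09-fold, stands apart from the other antisense RNA genes at its level, and most of the others past a line have a mean under 10 FPKM.

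PCNA-AS1 had the largest folds from mock among the 66 genes with sgL1ASP #3, and a fold second to that of ZRANB2-AS2 with sgL1ASP #1. It is transcribed from within PCNA, the gene of the sliding clamp that holds DNA polymerases on their template during replication, on the opposite strand of chromosome 20. PCNA-AS1 had 21.0 FPKM with mock, 44.8 with sgL1ASP #1 and 107 with sgL1ASP #3. Both guides were thus above mock, 2.13-fold and 5.09-fold, with sgL1ASP #3 2.39-fold above sgL1ASP #1. PCNA itself had 278, 271 and 261 FPKM, within 1.06-fold of mock. PCNA-AS1 was therefore 7.57% of the level of PCNA with mock, 16.5% with sgL1ASP #1 and 41.0% with sgL1ASP #3. Of 12701 genes with a mean of at least 1 FPKM and no 0, 8 had a higher ratio of sgL1ASP #3 to mock, and 49 a higher ratio of sgL1ASP #1 to mock. The transcript is short, 384 bases in RefSeq, so its reads would be about 40 with mock, 85 with sgL1ASP #1 and 171 with sgL1ASP #3. The 95% exact binomial interval of the fold, which covers counting error only, was then 1.46 to 3.22 for sgL1ASP #1 and 3.63 to 7.45 for sgL1ASP #3. Both folds stayed past the threshold under all 7 alternative settings. FPKM of so short a transcript depends strongly on the fragment length assumed by the authors' program, and that part in the result was not tested.

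ZRANB2-AS2, now named ZRANB2-DT, was the other gene above mock with both guides, so the count was 2 of 66, where 0.653% of all genes were above with both. No antisense RNA gene was below mock with both, where 0.52% of all genes were, and this count too comes from ratios alone and not from a test. ZRANB2-AS2 had 0.662 FPKM with mock, 1.68 with sgL1ASP #1 and 0.996 with sgL1ASP #3. It was 2.53-fold above mock with sgL1ASP #1 and just past the threshold, 1.504-fold, with sgL1ASP #3. This is also the order in which the study looked for genes, each step past 1.5-fold from mock to sgL1ASP #3 and on to sgL1ASP #1. Without a limit on level, ZRANB2-AS2 was the 1 gene with that order among 93 antisense RNA genes above 0 in every library, where 0.334% of all genes had it. The values rest on about 10, 26 and 13 reads, and the interval of the sgL1ASP #3 ratio, 0.633 to 3.98, includes no change. The sgL1ASP #3 call was kept in 2 of 7 alternative settings, being lost with FPKM of at least 1 in every library, a pseudocount of 0.1 or 1, a 2-fold threshold and the common sum. The sgL1ASP #1 call was kept in 6 of 7, being lost with FPKM of at least 1 in every library. Its sense gene ZRANB2, a zinc finger splicing factor gene, had 146, 149 and 141 FPKM. ZRANB2-AS1, which meets the same sense gene tail to tail, had 3.42, 3.52 and 4.06 FPKM and stayed within 1.19-fold of mock.

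2 antisense RNA genes of the HOX clusters were past 1.5-fold under mock with sgL1ASP #3. HOX genes are transcription factor genes in clusters that lay down body position in the embryo, and many noncoding RNAs run against them. HOXD-AS2 had 6.10 FPKM with mock, 8.77 with sgL1ASP #1 and 2.60 with sgL1ASP #3, the lowest library being 2.34-fold under mock. It rests on about 51, 72 and 18 reads, and the interval of its ratio to mock, 0.233 to 0.739, leaves out no change. HOXB-AS3 had 17.1 FPKM with mock, 17.2 with sgL1ASP #1 and 10.1 with sgL1ASP #3, and the interval of that ratio, 0.338 to 1.04, includes no change. The coding genes that overlap these 2 on the other strand stayed within 1.5-fold of mock. Against HOXD-AS2 lie HOXD8, with 8.31, 6.73 and 6.37 FPKM, and HOXD9, with 13.8, 12.2 and 12.7. Against HOXB-AS3 lie HOXB3 (5.30, 5.99 and 6.55 FPKM), HOXB4 (2.82, 3.17 and 3.20), HOXB5 (1.00, 1.20 and 0.781) and HOXB6 (12.2, 12.0 and 9.70). The other HOX antisense RNA genes stayed within 1.5-fold of mock: HOXA-AS3 with 2.01, 2.59 and 2.85 FPKM, HOXA-AS5 (now HOXA11-AS) with 10.4, 11.4 and 9.65, HOXB-AS5 (now PRAC2) with 11.2, 10.8 and 12.5, and HOXD-AS1 (now HAGLR) with 2.57, 2.33 and 1.91.

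The remaining 7 genes past 1.5-fold were each so with 1 guide. KANSL1-AS1, beside a subunit gene of the NSL acetyltransferase complex, had 6.37 FPKM with mock, 4.91 with sgL1ASP #1 and 3.28 with sgL1ASP #3, 1.94-fold under mock with sgL1ASP #3 (interval of the ratio 0.325 to 0.816). BOLA3-AS1, beside a gene for iron-sulfur cluster assembly in mitochondria, had 4.16, 3.02 and 6.78 FPKM, 1.63-fold above mock with sgL1ASP #3 (1.31 to 2.03) and 1.38-fold under it with sgL1ASP #1. KTN1-AS1, beside the gene of the kinesin-binding protein kinectin, had 2.41, 2.51 and 1.49 FPKM, 1.61-fold under mock with sgL1ASP #3 (interval of the ratio 0.412 to 0.939). These 3 genes had intervals that leave out no change, on about 29 to 195 reads each. Such an interval does not set them apart. With sgL1ASP #1 it also left out no change in some genes not past 1.5-fold, such as ZNFX1-AS1 (1.16 to 1.21) and FBXL19-AS1 (0.636 to 0.848). In others, such as FGD5-AS1 (0.861 to 1.14), it did not. The widths of these intervals follow the length of the gene model chosen, which may differ from the authors' annotation. ZNFX1-AS1 has a model of 4526 bases and about 15112 reads with mock. C17orf76-AS1, at a higher FPKM, has a model of 443 bases and about 2543 reads.

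The other 4 were low and had intervals that include no change. PCBP1-AS1, around the gene of an RNA-binding protein, had 1.00 FPKM with mock, 0.841 with sgL1ASP #1 and 1.84 with sgL1ASP #3. AATK-AS1, now named PVALEF, had 1.25, 1.41 and 0.669 FPKM. SPAG5-AS1, beside a mitotic spindle gene, had 1.15, 1.76 and 0.816 FPKM, above mock with 1 guide and below it with the other. MCF2L-AS1, head to head with MCF2L, had 3.01, 1.93 and 3.02 FPKM. Of 7 alternative settings, the call of SPAG5-AS1 was kept in 2, those of PCBP1-AS1 and AATK-AS1 in 4, and that of MCF2L-AS1 in 5. Over the libraries, 3 of the antisense RNA genes past 1.5-fold with sgL1ASP #1 had an estimate of reads from their own gene model, and the interval left out no change in 1 of them. With sgL1ASP #3 this held for 4 of 8.

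**Figure D3:**
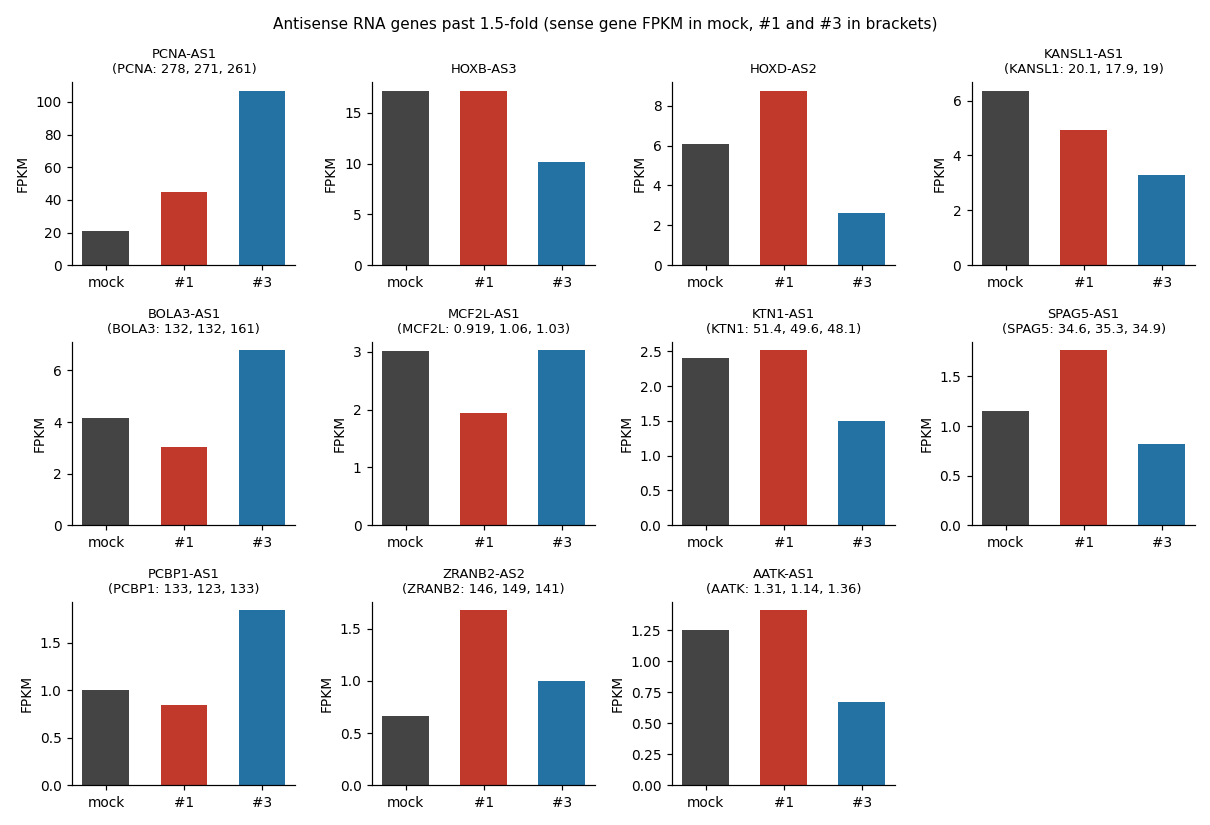
FPKM in mock, sgL1ASP #1 and sgL1ASP #3 (1 library each, axes from 0 with their own scale) of the 11 antisense RNA genes past 1.5-fold of mock with either guide, with the FPKM of the sense gene in the same order in brackets where it is listed. PCNA-AS1 goes from 21.0 to 107 FPKM while PCNA goes from 278 to 261, and HOXD-AS2 is lowest in sgL1ASP #3 at 2.60.

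The 2 guides also differed from each other, with mock left aside. Of the 66 antisense RNA genes, 8 were past 1.5-fold higher in sgL1ASP #1 than in sgL1ASP #3, where 1.67% of all genes were, and 5 were past it lower, where 1.67% were as well. The 8 were HOXD-AS2 (3.37-fold), SPAG5-AS1 (2.16-fold), AATK-AS1 (2.10-fold), RFPL3-AS1, BVES-AS1, HOXB-AS3, KTN1-AS1 and ZRANB2-AS2, and the 5 were PCNA-AS1 (2.39-fold), BOLA3-AS1 (2.25-fold), PCBP1-AS1 (2.19-fold), RUSC1-AS1 (2.08-fold) and MCF2L-AS1. RFPL3-AS1, BVES-AS1 and RUSC1-AS1, which are named here after their values were seen, lay between the guides in mock and did not pass 1.5-fold from it. By level, the guides differed past 1.5-fold in 10 of 34 genes between 1 and 5 FPKM, where 10.4% of all genes did, and in 3 of 32 at 5 FPKM or more, where 0.831% did. The comparisons with mock and between the guides share libraries, so they are not separate evidence.

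Antisense RNA genes were mostly lower than their sense genes. In mock, 98 of the 141 pairs had an antisense RNA above 0, with a median of 1.68 FPKM, and the sense genes of these pairs had a median of 10.2 FPKM. With sgL1ASP #1 there were 94 such pairs and with sgL1ASP #3 there were 96, so the medians that follow come from sets that differ between libraries. The median pair had its antisense RNA at 17.3% of the sense gene with mock, 11.8% with sgL1ASP #1 and 16.2% with sgL1ASP #3. The median log2(FPKM + 0.1) ratio was -2.33, -2.47 and -2.29. These medians are not changes within the same pairs. The antisense RNA was above its sense gene in 27 of the 98 pairs in mock (27.6%), in 25 of 94 with sgL1ASP #1 and in 25 of 96 with sgL1ASP #3. The rank correlation of the levels across pairs was 0.36, 0.31 and 0.34, a description over genes that share a library and, in part, a promoter region. In 10 pairs the sense gene had a mean of at least 1 FPKM and the antisense RNA was at 0 in every library, and in 8 pairs both were at 0.

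Ratios were ranked among antisense RNAs with a mean of at least 1 FPKM, since many of the others rest on few reads. FGD5-AS1 was 128 times FGD5, a guanine nucleotide exchange factor gene known from endothelial cells, which had 0.301 FPKM with mock, 0.339 with sgL1ASP #1 and 0.463 with sgL1ASP #3. MAGI2-AS3 was 50.6 times MAGI2, a synaptic scaffold gene with 0.321, 0.378 and 0.481 FPKM. ZNFX1-AS1 was 80.5 times ZNFX1 in mock, and EPB41L4A-AS1 was 23.5 times EPB41L4A, with sense genes at 4.16 and 4.23 FPKM. TTC28-AS1 (5.66 times its sense gene), TP73-AS1 (5.12 times), MYLK-AS1 (4.35 times) and MFI2-AS1 (3.91 times) followed, which completes the 8 highest. RFPL3-AS1 had 2.52 FPKM with mock while RFPL3 was listed at 0, which gives no ratio. At the other end, under the same limit on level, SLC25A5-AS1 stood at 0.317% of SLC25A5, an ADP/ATP carrier gene with 965 FPKM in mock, and TPT1-AS1 at 0.373% of TPT1, the gene of a translationally controlled protein with 3078 FPKM. A low ratio was not a low antisense RNA: TPT1-AS1 itself had 11.5 FPKM, more than MYLK-AS1 with 7.44.

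In 55 pairs both genes had a mean of at least 1 FPKM. The sense genes were the higher side, with a median of 25.9 FPKM against 4.31 for the antisense RNAs, and 45 of them were at 5 FPKM or more, against 25 antisense RNAs. The antisense RNA was past 1.5-fold of mock in 4 of them with sgL1ASP #1 and in 7 with sgL1ASP #3, and the sense gene in 0 and 0 of them. At 5 FPKM or more, 0.83% and 0.874% of all genes were past it, so a count of 0 among the sense genes is near that of all genes. The median change regardless of sign was 0.23 and 0.16 on the log2 scale for the antisense RNAs, and 0.08 and 0.07 for the sense genes, which is close to the 0.09 of all genes. The levels of both sides differ, and their part in this difference was not tested. Both genes moved the same way in 28 of the 55 pairs with sgL1ASP #1 and in 23 with sgL1ASP #3. The rank correlation of the changes across the pairs was -0.03 with sgL1ASP #1 and -0.04 with sgL1ASP #3, given as a description since all pairs share the same libraries.

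**Figure D4:**
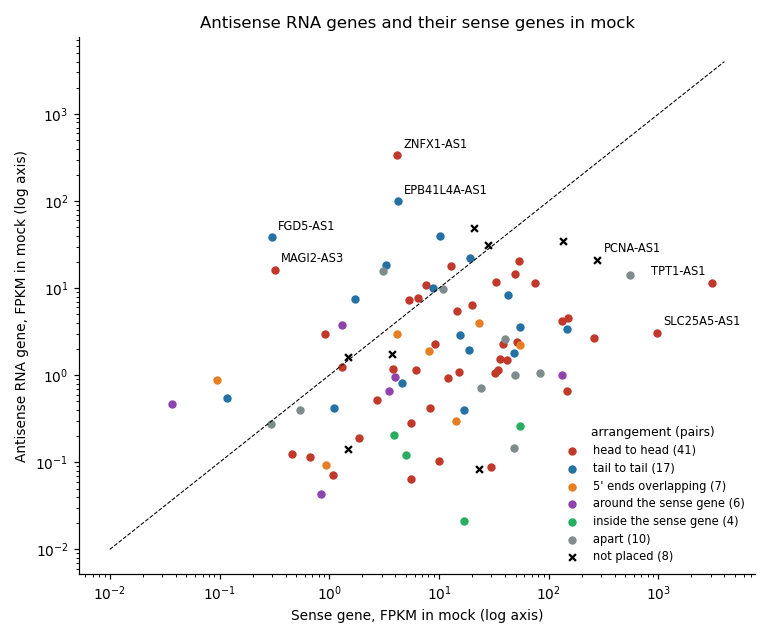
FPKM of the antisense RNA gene against FPKM of its sense gene in mock (log axes) for the pairs with both above 0, coloured by how the pair lies on the genome, with the dashed line at equal levels. Most pairs lie under the line, FGD5-AS1, MAGI2-AS3, ZNFX1-AS1 and EPB41L4A-AS1 lie far above it, and the 4 shown inside the sense gene are all under 0.3 FPKM.

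The level differed with how a pair lies on the genome. Gene models of the same build as the files (GRCh37, also known as hg19) were found for 140 of the antisense RNA genes, 37 of them under another name, and 134 were arranged against their sense gene. A head to head pair was one on opposite strands with starts at most 1000 bases apart. There were 52 such genes, with a median of 233.5 bases between the starts, and 28 of them (53.8%) had a mean of at least 1 FPKM. Of 22 genes that met the sense gene tail to tail, 15 (68.2%) did, 17 shared exon sequence with it on the opposite strand, and their median log2 ratio to the sense gene in mock was -0.53, against -2.76 head to head. Of 17 genes inside the sense gene, 0 had a mean of at least 1 FPKM and 12 were at 0 in every library. Their sense genes were low too, with a median of 0.531 FPKM in mock, against 10.4 head to head and 6.77 tail to tail. The part of the sense gene level in these differences was not tested. PCNA-AS1, which lies inside PCNA in RefSeq but has no model here, is not among these 17. The distance between its start and that of PCNA was not taken, and one of at most 1000 bases would make the pair head to head. Its mean is well over the limit of 1 FPKM. Of 17 that lay apart, 5 reached it, as did 4 of 15 with overlapping 5' ends and 2 of 11 that lay around the sense gene. The 15 genes without an arrangement held 12 at this level. Of the 28 head to head genes with a mean of at least 1 FPKM, 3 were past 1.5-fold of mock with sgL1ASP #1 and 5 with sgL1ASP #3. Of the 15 tail to tail genes there were 0 and 0, a count that the shares of all genes past 1.5-fold either way, 3.23% and 3.48%, would also give. Around the sense gene, 1 of 2 was past it with sgL1ASP #3. HOXB-AS3 and HOXD-AS2 are in none of these classes, because no single sense gene is listed for them. Whether these shares differ between arrangements was not tested.

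Pairs that share 1 sense gene allowed the arrangements to be set side by side on the same partner. ZNF503-AS2, which starts 245 bases from ZNF503, had 14.7 FPKM with mock, 11.5 with sgL1ASP #1 and 15.1 with sgL1ASP #3, whereas ZNF503-AS1, which lies apart, had 0.999, 1.02 and 0.828. ST7-AS1, which starts 833 bases from ST7, had 5.47, 5.70 and 5.84 FPKM, whereas ST7-AS2, inside ST7, was listed at 0 in all 3 libraries. GRIK1-AS1 and GRIK1-AS2, both inside a glutamate receptor gene that is itself near 0, were listed at 0 as well. The ZRANB2 pair went the other way, with the tail to tail ZRANB2-AS1 above the head to head ZRANB2-AS2 in all 3 libraries.

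The sequence around the starts also differed with level. RefSeq promoter windows (GRCh38.p14, 250 bases before to 50 after a start) were found for 105 of the antisense RNA genes, 134 windows in all. The median window held 20 CpG dinucleotides, beside 14 over all 35116 windows, and 28.5 for the genes with a mean of at least 1 FPKM, but 4.5 for those at 0 in every library. The motif GGGCGG, a GC box, was sought on both strands and was in 53.0% of the windows, in 64.7% of those of genes with a mean of at least 1 FPKM, and in 27.3% of those at 0, beside 45.0% of all windows. CCAAT was in 29.1%, beside 34.6% of all windows, and in 12.5% of the windows of head to head genes. TATAAA was in 5.97%, beside 11.5%, and GCCATNTT was in 7.46%, beside 6.58%. These matches are letters in a window, and windows of 1 gene overlap.

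3 windows are printed for head to head genes past 1.5-fold, 2 that hold a start of the antisense RNA and a start of the sense gene, and that of the 1 gene with the stepwise order. A window was also found for MCF2L-AS1, with the nearest start of MCF2L 576 bases before its own, and is not printed. Each reads 5' to 3' along the antisense RNA, with its start after base 250, and capitals mark GGGCGG or its complement CCGCCC. BOLA3-AS1 (now BOLA3-DT) is at chr2:74147731-74148030 on the plus strand, with a start of BOLA3 69 bases before its own and 4 GC boxes. KTN1-AS1 is at chr14:55580043-55580342 on the minus strand, with a start of KTN1 115 bases before its own and 5 GC boxes, some overlapping. ZRANB2-AS2 (now ZRANB2-DT) is at chr1:71081074-71081373 on the plus strand, with the nearest start of ZRANB2 289 bases before its own and none of the 4 motifs.
BOLA3-AS1: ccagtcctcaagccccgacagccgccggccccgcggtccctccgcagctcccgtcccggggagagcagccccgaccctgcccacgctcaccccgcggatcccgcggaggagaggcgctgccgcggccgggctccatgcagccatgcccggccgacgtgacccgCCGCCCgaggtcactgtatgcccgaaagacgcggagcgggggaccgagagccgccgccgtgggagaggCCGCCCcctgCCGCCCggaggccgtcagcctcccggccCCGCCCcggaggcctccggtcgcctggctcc
KTN1-AS1: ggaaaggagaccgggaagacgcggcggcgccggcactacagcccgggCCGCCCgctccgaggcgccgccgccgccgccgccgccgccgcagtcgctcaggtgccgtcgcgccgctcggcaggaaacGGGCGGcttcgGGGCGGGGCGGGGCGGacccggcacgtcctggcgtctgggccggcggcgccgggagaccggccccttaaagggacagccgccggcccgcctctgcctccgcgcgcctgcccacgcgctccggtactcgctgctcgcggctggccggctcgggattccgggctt
ZRANB2-AS2: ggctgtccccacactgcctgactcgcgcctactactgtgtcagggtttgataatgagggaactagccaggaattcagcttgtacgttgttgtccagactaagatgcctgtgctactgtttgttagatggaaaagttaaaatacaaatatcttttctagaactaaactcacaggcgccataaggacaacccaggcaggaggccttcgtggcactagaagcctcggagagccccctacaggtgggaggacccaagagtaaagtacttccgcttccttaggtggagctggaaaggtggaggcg

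The first and second hold 41 and 54 CpG dinucleotides with 79.0% and 80.0% G and C, and the third holds 8 with 50.7%. BOLA3 was at 132 FPKM with mock, 132 with sgL1ASP #1 and 161 with sgL1ASP #3, and BOLA3-AS1 at 3.14%, 2.29% and 4.21% of it. KTN1 was at 51.4, 49.6 and 48.1 FPKM, with KTN1-AS1 at 4.69%, 5.06% and 3.10%. In the BOLA3 pair both genes were highest with sgL1ASP #3, and in the KTN1 pair both were lowest with it, though KTN1 stayed within 1.07-fold of mock. Across the 55 pairs described above, both genes moved the same way in 28 with sgL1ASP #1 and in 23 with sgL1ASP #3.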

How the data were processed

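Total RNA of 3 samples of 293T cells, 1 per condition, was measured. Libraries had been made with a stranded TruSeq mRNA kit and read for 75 bases from 1 end. The authors aligned reads to hg19 (TopHat 2.0.13 over Bowtie2 2.2.3, with SAMtools 0.1.19, per the submitters' processing notes) and deposited FPKM per gene, computed by Cuffdiff 2.2.1 of the Cufflinks package in strand-specific mode. The gene annotation is not given in the sources used here. The FPKM were used without rescaling. Depth was read from the spacing of low values of genes with 1 transcript in GENCODE 44 lifted to GRCh37, on which only 49, 74 and 62 genes agreed within the peak, so estimated reads (FPKM, model length less 200 bases, depth) are rough. Cell identity came from the labels, and 0 value columns belonged to no sample. Older names were matched through RefSeq.

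The members and lists were chosen with earlier results of these data known. Named genes are studied antisense RNAs, the 15 highest, those past 1.5-fold of mock, those rising stepwise, the 8 highest antisense to sense ratios in mock at a mean of at least 1 FPKM, members sharing 1 sense gene, and their sense genes. Other HOX antisense RNAs, the host snoRNAs, overlapping HOX genes and the lowest ratios were added after their values were seen. Log2 changes used a pseudocount of 0.1. The counting was run on simulated data with changes larger than 1.5-fold in genes at 5 FPKM or more. That run does not show how reliable calls near 1.5-fold or at lower levels are. Scripts ran on Python 3.11.15 with pandas 2.3.3, NumPy 2.4.6, matplotlib 3.10.9 and SciPy 1.17.1. The growth, reporter and RT-PCR experiments were not analysed here.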

Additional observations from a re-analysis of the deposited data

How the results depend on the processing

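Of 43 alternatives, 24 left the value within the limit used for no change and 19 moved it. The limit was 1.5 times for a count and for the median ratio of antisense to sense gene, and 0.1 on the log2 scale for a median change. With no filter on FPKM, 10 antisense RNA genes were past 1.5-fold the same way with both guides, 16 with sgL1ASP #1 and 25 with sgL1ASP #3, against 2, 4 and 9, while the shares of all genes past it either way were 4.82%, 11.9% and 12.0% against 1.17%, 3.23% and 3.48%. The count with both guides was 1 with FPKM of at least 1 in every library, with a pseudocount of 0.1 or 1, at 2-fold and after rescaling to a sum of 1000000, where between 0.346% and 1.83% of all genes were counted. The count with sgL1ASP #1 was 2 with FPKM of at least 1 in every library, with a pseudocount of 1 and at 2-fold, where 2.11%, 1.89% and 0.974% of all genes were, and 10 after rescaling to the sum, where 4.75% were. The count with sgL1ASP #3 was 5 with a pseudocount of 1 (2.0% of all genes) and 2 at 2-fold (0.991%). With FPKM of at least 1 in every library it was 6 (2.19%), and after rescaling to the sum 12 (5.43%). The stepwise count went from 1 to 0 with either pseudocount and with the rescaled sum, where 0.18%, 0.0215% and 0.263% of all genes had that order. Rescaling to the sum moved the median log2 change with sgL1ASP #3 from -0.02 to -0.14, where that of all genes moved to -0.12, and with sgL1ASP #1 from 0.03 to -0.06. The median log2 ratio of antisense to sense gene was -1.58 with a pseudocount of 1, against -2.33. The cause was not tested beyond what the construction of each setting shows. Leaving out PCNA-AS1, an alternative chosen after seeing the data, gave 3 genes with sgL1ASP #1 and 8 with sgL1ASP #3. PCNA-AS1 with both guides and HOXD-AS2 with sgL1ASP #3 were past 1.5-fold in all 7 settings of filter, pseudocount, threshold and scaling. The other calls were each lost in at least 1 setting. With sgL1ASP #3, HOXB-AS3 and KANSL1-AS1 were kept in 6 of 7, and BOLA3-AS1 and KTN1-AS1 in 5 of 7. No paired analysis was possible because there is 1 library for mock and 1 for each guide. Depth limits the low values: at under 0.3 FPKM, 9 antisense RNA genes had a value in both mock and sgL1ASP #1, and 2 of these (ADAMTS9-AS2 and FAS-AS1) stood at the ratio of 1.013 that equal read numbers give. Of all 1476 genes with such values, 24.0% stood there. With sgL1ASP #3, 1 of 10 antisense RNA genes stood at its ratio of 1.203, where 24.1% of all genes did.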
